A study of Mus musculus with 2 samples.

Results

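Heat shock proteins and chaperonins were described in mouse hematopoietic stem cells (HSC). The genes were chosen by name and not by level. They were the protein-coding genes whose symbols begin with Hsp90, Hspa, Hspb, Hspd, Hspe, Hsph or Dnaj, together with Tcp1 and Cct2 to Cct8. This gave 82 genes of 21475 protein-coding genes. They were 10 Hsp70 genes, 3 Hsp110 genes, 3 Hsp90 genes, 2 genes of the mitochondrial chaperonin, 9 genes of the cytosolic chaperonin CCT, 45 J protein genes, 8 small heat shock protein genes and 2 Hspb-named binding protein genes. Cct6a is typed as a processed transcript in the gene annotation used here and was kept because it is one of the names given. Hspa14, another gene with such a name, was not analysed here. All RNA came from HSC of male C57BL/6J mice aged 5 to 6 weeks, and no group was treated or mutant. The 1 group held 2 biological replicates, each a library of total RNA made from 100 ng with the ScriptSeq kit after removal of ribosomal RNA. Both replicates point to the same donor entry through separate biosamples. The labels do not say whether they came from different animals, how many mice were pooled or which gate sorted the cells, so the spread between them may be technical. With 1 group there was no comparison of conditions and no test, and the values of both libraries are given side by side.

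Chaperones bind unfolded proteins and help them reach their native shape. Hsp70 proteins hold short exposed stretches of a client through cycles of ATP binding and hydrolysis. J proteins start that hydrolysis and bring clients, and Hsp110 and Bag proteins reset the cycle by exchanging the nucleotide. Hsp90 takes over partly folded clients such as kinases and receptors, and chaperonins enclose a client in a barrel, Hsp60 with its lid Hsp10 in mitochondria and CCT in the cytosol for actin and tubulin. Under stress, heat shock factors bind repeats of a short element in promoters, and unfolded proteins in the endoplasmic reticulum act through a separate element. Blood stem cells are known for a low rate of protein synthesis and a sensitivity to loss of protein quality.

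Promoter windows show 2 sets of members that carry such elements, and the sequences are shown because in them these members differ from most promoters. RefSeq promoters on GRCm38.p6, from 250 bases before to 50 after a start, were found for 67 of the 82 genes. The heat shock element was searched as GAANNTTCNNGAA or TTCNNGAANNTTC, which are the same element on opposite strands. It was in 4 of 67 members (5.97%), namely Hspd1, Hspe1, Dnajb6 and Hsph1, and in 0.662% of all 27025 genes with a window. Among the 63 members without this exact spelling were Hspa1a, Hspa1b, Dnajb1 and Hspb1. Only matches wholly before a start are shown, which leaves out Hsph1. Hspd1 and Hspe1, the genes of mitochondrial Hsp60 and Hsp10, lie head to head and share one stretch at chr1:55088053-55088082, which holds 2 overlapping matches. Capitals mark the matched element in each line, written 5′ to 3′ on the strand of the gene, minus for Hspd1 and plus for Hspe1 and Dnajb6. The Dnajb6 stretch is chr5:29735844-29735872. All 3 stretches lie in an annotated untranslated region of at least one transcript, since several starts are annotated for these genes.
Hspd1: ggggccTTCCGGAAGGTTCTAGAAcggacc
Hspe1: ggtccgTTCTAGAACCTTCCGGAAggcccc
Dnajb6: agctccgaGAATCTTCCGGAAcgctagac

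The element of the endoplasmic reticulum stress response was searched as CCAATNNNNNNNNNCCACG on both strands, so it always contains a CCAAT box. It was in 3 of 67 members (4.48%), namely Hspa5, Hsp90b1 and Dnajc3, and in 0.137% of all genes with a window. All 3 encode proteins of the endoplasmic reticulum, the Hsp70 protein BiP, the Hsp90 protein Grp94 and the J protein p58. Hsp90b1 had 2 matches, 212 and 107 bases before its start, and the others had 1. The stretches are chr2:34772020-34772048 on the plus strand for Hspa5, chr10:86705513-86705676 on the minus strand for Hsp90b1 and chr14:118937807-118937865 on the plus strand for Dnajc3, with matches in capitals. The Hspa5 stretch lies in an untranslated region of the longer model Hspa5-201.
Hspa5: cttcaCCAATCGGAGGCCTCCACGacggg
Hsp90b1: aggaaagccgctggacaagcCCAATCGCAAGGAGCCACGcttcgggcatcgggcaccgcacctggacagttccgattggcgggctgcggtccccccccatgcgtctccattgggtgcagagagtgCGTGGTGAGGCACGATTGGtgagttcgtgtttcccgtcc
Dnajc3: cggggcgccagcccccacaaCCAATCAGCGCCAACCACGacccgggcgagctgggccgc
The shorter CCAAT box alone was about as common in members (43.3%) as in all genes (41.1%), and TATAAA was in 5.97% of members and 15.7% of all genes. A match describes letters in a window and not binding. For 15 members, Hspa8 and both cytosolic Hsp90 genes among them, no window was used.

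The libraries held 27901074 counts in replicate 1 and 48490188 in replicate 2. Levels are given in TPM, a unit that divides by transcript length and has the same sum in every library. Counts divided by the library total alone, with no division by length, are given as CPM. Protein-coding genes held 16.3% of all TPM in replicate 1 and 20.3% in replicate 2, so a TPM of a coding gene here stands for a larger share of the coding RNA than the same value in a table of coding genes alone. Over protein-coding genes with a mean of at least 1 TPM, the median ratio of replicate 2 to replicate 1 was 1.22-fold (0.29 on the log2 scale). Of 16 stem cell markers, 14 reached 1 TPM in both libraries, among them Cd34 (145 and 166 TPM) and Angpt1 (86.5 and 114). Slamf1 and Hoxb5 stayed under 1 TPM. Neutrophil markers were present too, 15 of 15, with S100a8 at 1504 TPM in replicate 1 and 645 in replicate 2. In such bulk RNA fewer cells of a type and less RNA per cell cannot be told apart.

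Most chaperone genes were expressed in HSC. In both libraries 59 of 82 members (72%) reached 1 TPM, beside 44.0% of all protein-coding genes. Dnaja4 and Dnajc30 reached 1 TPM in 1 library only. The other 21 members stayed under 1 TPM in both libraries, and 10 of these had 0 counts in both. The member median was 6.06 TPM in replicate 1 and 7.24 in replicate 2, beside 0.51 and 0.53 for protein-coding genes. The members held 1.60% of protein-coding TPM in replicate 1 and 2.04% in replicate 2, a mean of 1.82% ± 0.308 (SD, n = 2). A few genes carried most of it: Hspa8, Hsp90ab1 and Hsp90aa1 together held 43.2% of member TPM in replicate 1 and 47.5% in replicate 2. Among the 500 highest protein-coding genes, which are 2.33% of all, 18 were members.

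**Figure D1:**
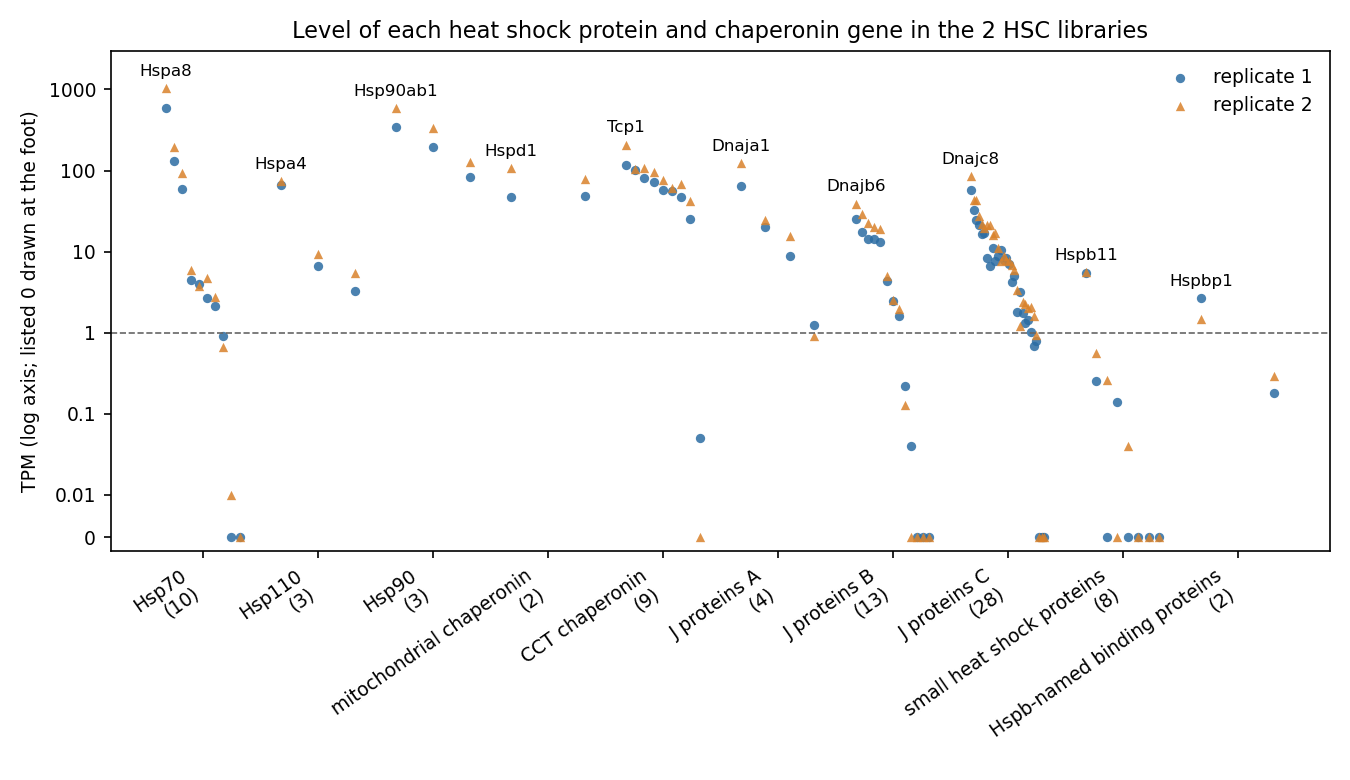
Level of each of the 82 genes in TPM on a log axis, by class with the number of genes, circles for replicate 1 and triangles for replicate 2, ordered by mean within a class. The dashed line is 1 TPM. Hspa8 is highest at 591 and 1039 TPM, and of the small heat shock proteins Hspb11 alone lies above the line.

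The Hsp70 class was dominated by its constitutive cytosolic form. Gene positions here and below are those of the GRCm38 annotation. Hspa8, the gene of Hsc70 (chr9:40800984-40810087, plus strand), had 591 TPM in replicate 1 and 1039 in replicate 2, and by mean it was number 13 of all protein-coding genes. The stress-inducible Hspa1a (chr17:34969190-34972156, minus strand) stood at 2.65 and 4.68 TPM. Its copy Hspa1b (chr17:34956436-34959238, minus strand) stood at 4.00 and 3.76 TPM. Hspa8 thus exceeded Hspa1a 223-fold in replicate 1 and 222-fold in replicate 2, a log2 ratio of (TPM + 0.1) of 7.76 ± 0.01 (SD, n = 2). It exceeded Hspa1b 148-fold and 276-fold, a log2 ratio of 7.62 ± 0.64. Hspa8 held 98.5% of the TPM of the cytosolic Hsp70 genes in replicate 1 and 98.9% in replicate 2, and Hspa1a with Hspa1b held 1.11% and 0.804%. The inducible pair was not ordered: Hspa1b was higher in replicate 1 and Hspa1a in replicate 2, with deposited intervals that did not overlap in either. The posterior SD of their counts was between 1.53% and 2.5%. These copies share 58.8% of the 50-base stretches of Hspa1a and 62.3% of those of Hspa1b, and their promoter windows have the same base at 296 of 300 positions. How reads from the shared stretches were divided is not stated in the labels or headers, so their split is uncertain. Their sum was 6.65 TPM in replicate 1 and 8.44 in replicate 2. Hspa8 shared no 50-base stretch with Hspa1a.

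The organelle Hsp70 genes followed Hspa8. Hspa5, the gene of BiP in the endoplasmic reticulum (chr2:34771970-34777547, plus strand), had 131 TPM in replicate 1 and 194 in replicate 2. Hspa9, the gene of mortalin in mitochondria, stood at 59.97 and 91.9 TPM. Hspa13, a microsomal form, stood at 4.45 and 6.00 TPM and the testis-enriched Hspa2 at 2.15 and 2.76. Both organelle forms were thus below Hspa8 and above every other Hsp70 gene in both libraries. Hspa12b, a distant relative, remained under 1 TPM (0.92 and 0.67), Hspa1l was listed at 0 and 0.01 TPM, and Hspa12a had 0 counts in both libraries. A count of 0 allows up to 0.108 CPM in replicate 1 and 0.0619 in replicate 2, for counting error only.

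Of the 3 Hsp110 genes, whose proteins exchange the nucleotide on Hsp70, Hspa4 led. Hspa4 had 66.0 TPM in replicate 1 and 73.5 in replicate 2 and held 86.9% and 83.3% of Hsp110 TPM. Hspa4l stood at 6.69 and 9.38 TPM. Hsph1, the member of this class induced by heat, stood at 3.26 and 5.37 TPM. Hspa4 exceeded Hspa4l by 3.12 ± 0.23 and Hsph1 by 4.02 ± 0.39 on the log2 scale, and both pairs were ordered. In CPM these log2 ratios were 1.94 and 3.22. A pair counts as ordered here when both libraries give the same direction and the deposited intervals of the 2 genes do not overlap in either. Most of the Hspa4 TPM lay in a 630-base retained intron model, Hspa4-202, with 64.3% in replicate 1 and 53.0% in replicate 2. The coding transcript Hspa4-201 stood at 22.1 and 32.9 TPM, still above the whole Hspa4l gene. By counts most of the gene lay in Hspa4-201, with 8426 in replicate 1 and 18644 in replicate 2, beside 1606.5 and 1951.5 for Hspa4-202. Hspa4 transcripts were picked after their values were seen.

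The Hsp90 genes were all high and kept their order. Hsp90ab1, the constitutive cytosolic form (chr17:45567775-45573271, minus strand), had 343 TPM in replicate 1 and 590.0 in replicate 2. Hsp90aa1, the more stress-responsive cytosolic form (chr12:110690605-110702728, minus strand), stood at 197 and 337 TPM. Hsp90b1, the gene of Grp94 in the endoplasmic reticulum (chr10:86690209-86705509, minus strand), stood at 83.9 and 128 TPM. All 3 were higher in replicate 2, each between 1.52-fold and 1.72-fold. The ratio of the cytosolic forms hardly moved: Hsp90ab1 held 63.5% of their sum in replicate 1 and 63.7% in replicate 2, a log2 ratio of 0.80 ± 0.01 (SD, n = 2). In CPM that log2 ratio was 0.41, and the leading Hsp90aa1 transcript is longer, 3281 bases beside 2520. Hspa5 exceeded Hsp90b1, whose promoter windows both hold the endoplasmic reticulum element shown above, by 0.63 ± 0.03.

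The mitochondrial chaperonin genes stood near each other in replicate 1 and apart in replicate 2. Hspd1, the gene of Hsp60 (chr1:55077835-55088243, minus strand), had 47.4 TPM in replicate 1 and 107 in replicate 2. Hspe1, the gene of the lid Hsp10 (chr1:55088132-55091307, plus strand), stood at 48.9 and 78.5 TPM. The annotated start of Hspe1 lies inside the span of Hspd1. Their ratio was 0.968 in replicate 1 and 1.36 in replicate 2. The pair was therefore not ordered, and neither was Hspa9 with Hspd1, 1.27-fold in replicate 1 and 0.862-fold in replicate 2. In CPM Hspd1 exceeded Hspe1 by 2.13 on the log2 scale, with leading transcripts of 2423 and 774 bases. A processed copy, Hspd1-ps3, was listed at 5.89 and 6.78 TPM, with 8.59% of the Hspd1 count in replicate 1 and 4.35% in replicate 2, and reads can be shared between such copies.

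The CCT barrel contains each of 8 subunits in equal number, but their RNA levels were not equal. Tcp1, the gene of the alpha subunit (chr17:12915701-12925067, plus strand), was highest in both libraries with 116 TPM in replicate 1 and 209 in replicate 2. Cct7, the gene of the eta subunit (chr6:85451514-85468475, plus strand), was lowest in both with 25.5 and 42.4 TPM. The others lay between these. Cct8 stood at 103 and 105 TPM, Cct2 at 81.6 and 108, Cct5 at 72.7 and 97.2 and Cct3 at 57.8 and 76.2. Cct4 stood at 55.5 and 61.2 TPM and Cct6a at 47.5 and 69.1. The order of neighbours was not fixed: Cct8 and Cct2 changed places between the libraries, as did Cct4 and Cct6a. Highest over lowest was 4.56 in replicate 1 and 4.92 in replicate 2. Without Tcp1 it was 4.03 and 2.54.

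**Figure D2:**
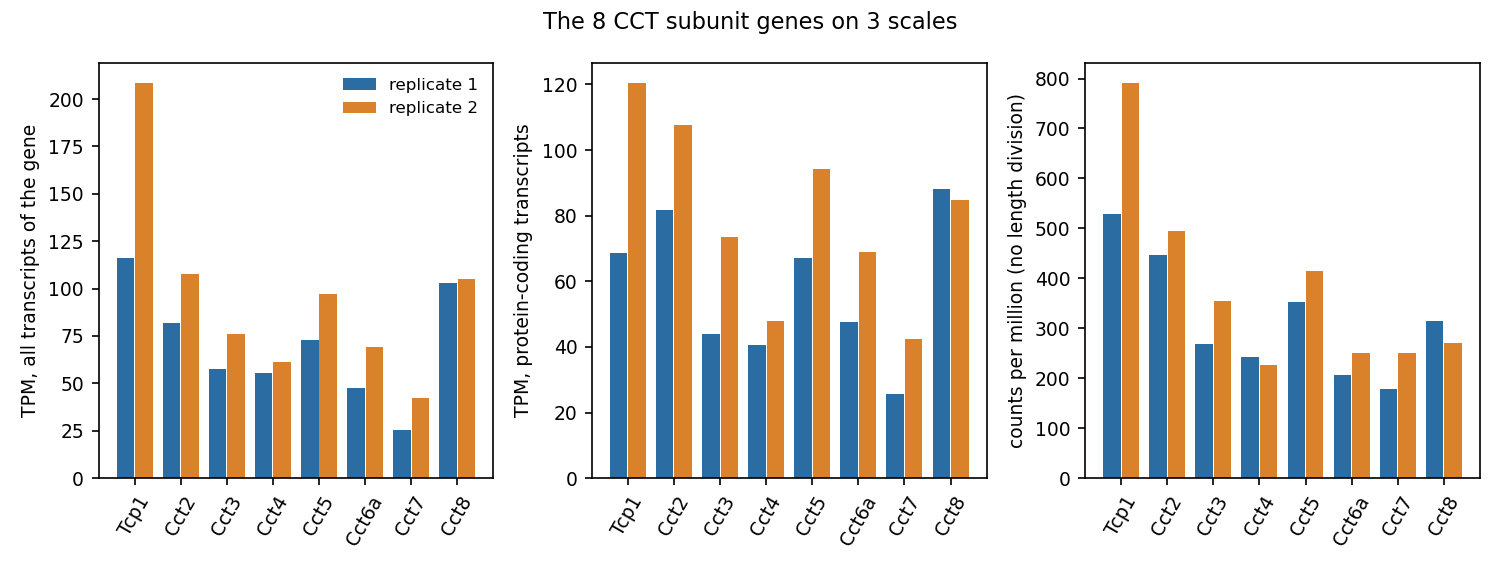
The 8 CCT subunit genes in TPM over all transcripts, in TPM over transcripts annotated as protein-coding (with Cct6a kept whole) and in CPM, with a bar for each replicate and axes from 0. Tcp1 is highest over all transcripts and in CPM in both libraries, and on the coding scale Cct8 is highest in replicate 1 at 88.2 TPM and Tcp1 in replicate 2 at 121 TPM.

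The lead of Tcp1 depended on which transcripts were counted. Short retained intron models took a large part of its TPM: Tcp1-206 held 15.8% in replicate 1 and 34.1% in replicate 2, and Tcp1-205 held 19.2% and 4.55%. Over protein-coding transcripts alone, a choice made after seeing the data, Tcp1 stood at 68.7 and 121 TPM, and the mean ratio of the highest to the lowest subunit was 3.15 in place of 4.74. In CPM it was 3.24. Cct7 remained lowest on all 3 scales except in replicate 2 of the CPM, where Cct4 was lowest at 226. The coding scale still counts short coding models. Of Cct8, 57.4 TPM in replicate 1 and 57.9 in replicate 2 lay in the 716-base model Cct8-202. The 2394-base Cct8-201 stood at 21.1 and 22.0 TPM, below Cct7 at 25.5 and 42.4. The testis form Cct6b had 0.05 TPM in replicate 1 and 0 in replicate 2. Its deposited upper bounds were 0.101 and 0.0229 TPM, far below the level of Cct6a in both libraries. For comparison, prefoldin hands clients to CCT and also holds 6 kinds of subunit. In TPM its subunit genes had a ratio of 7.64 and 9.31 from the highest (Pfdn5) to the lowest (Pfdn2), with medians of 13.9 and 15.1 TPM. By counts, with no division by length, its subunit gene Vbp1 (3132 and 6652) stood above Pfdn5 (2496 and 4114).

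J proteins made up the largest class, and 34 of 45 were detected while 6 had 0 counts in both libraries. Dnaja1, a general cytosolic partner of Hsc70, led with 64.8 TPM in replicate 1 and 123 in replicate 2. It exceeded its relative Dnaja2 (20.1 and 24.5 TPM) by 2.00 ± 0.45 on the log2 scale. It exceeded Dnajb1, the classical inducible Hsp40 gene (14.4 and 20.0 TPM), by 2.39 ± 0.32, and both pairs were ordered. In CPM the log2 ratios were 1.03 over Dnaja2 and 1.78 over Dnajb1. Dnajb6, whose protein keeps aggregation-prone chains soluble, stood at 24.9 and 39.0 TPM. Dnajb4, another cytosolic form, stood at 13.3 and 19.2, and the mitochondrial Dnaja3 at 8.94 and 15.6. Over whole genes Dnaja1 was thus the highest cytosolic form in both libraries, and the others named lay within a narrower range. The 916-base model Dnaja1-205 held 32.0% of the Dnaja1 TPM in replicate 1 and 47.7% in replicate 2. The 3376-base model Dnaja1-201 stood at 11.96 and 24.55 TPM, beside 20.13 and 24.49 for Dnaja2.

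The J proteins of the endoplasmic reticulum named here ranged from 8.33 to 17.3 TPM in replicate 1 and from 15.8 to 28.8 in replicate 2. Dnajb9 had 17.3 TPM in replicate 1 and 28.8 in replicate 2. Dnajb11 stood at 14.3 and 22.6 TPM, Dnajc10, a disulfide reductase, at 16.5 and 22.1, and Dnajc3 at 11.2 and 15.8. Dnajc1, a membrane form that touches ribosomes, stood at 8.33 and 21.01 TPM. Of the Dnajc1 TPM, 44.5% in replicate 1 and 24.25% in replicate 2 lay in protein-coding transcripts. Dnajc10 and Dnajc1 were not ordered. Dnajb11 exceeded Dnajc3 by 0.43 ± 0.11 on the log2 scale and the pair was ordered, but in CPM the direction turned, with -1.12.

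Several other J proteins with Dnajc symbols were also high. Dnajc8, a spliceosome-associated protein, had 56.8 TPM in replicate 1 and 85.5 in replicate 2. Dnajc9, a histone chaperone, stood at 32.7 and 43.4 TPM and Dnajc2, which sits at the ribosome exit tunnel, at 24.4 and 43.0. Dnajc7, which links Hsp70 and Hsp90, stood at 21.03 and 27.6 TPM and exceeded Dnajc5, a vesicle protein (6.96 and 7.55), 3.02-fold and 3.65-fold in TPM. In CPM that excess was not seen, and the log2 ratio was -0.13 in the first library and 0.17 in the other. Of the import motor of mitochondria, Dnajc15 stood at 16.9 and 19.8 TPM and Dnajc19 at 6.71 and 21.4, and the pair was not ordered. The single Dnajc15 transcript in the table is typed as a target of nonsense-mediated decay. Dnajc11, a protein of mitochondrial membranes, stood at 7.66 and 17.0 TPM. The 17 detected J proteins below the median of the class, Dnaja3 and Dnajc5 among them, had means from 1.56 TPM for Dnajc16 to 12.25 for Dnaja3. Dnajb7, Dnajb8, Dnajb13, Dnajc5b, Dnajc5g and Dnajc22 had 0 counts. The Hsp70 genes without the distant Hspa12 forms together stood at 1.75 times the summed J protein TPM in replicate 1 and 1.94 times in replicate 2.

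Small heat shock proteins, which hold unfolded chains without ATP, were low or not detected. Of 8 genes 1 was detected, Hspb11 at 5.43 TPM in replicate 1 and 5.57 in replicate 2. Hspb11 is known as a component of intraflagellar transport rather than as a holding chaperone. Hspb6 stood at 0.25 and 0.56 TPM. Hspb7 was listed at 0 and 0.26 TPM, Hspb8 at 0.14 and 0, and Hspb1, the widely studied Hsp27 gene, at 0 and 0.04. Hspb2, Hspb3 and Hspb9 had 0 counts in both libraries. Of the binding proteins whose symbols share the letters, Hspbp1, an exchange factor for Hsp70, stood at 2.66 and 1.47 TPM, and Hspbap1 at 0.18 and 0.29.

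Partner genes outside these names were mostly expressed at moderate levels. Of the heat shock factors and their binding proteins, 3 of 7 were detected: Hsbp1 at 16.3 and 18.9 TPM, Hsf2 at 3.01 and 4.07 and Hsf1 at 2.11 and 2.38. Hsf3 and Hsf5 had 0 counts. Of the Hsp90 co-chaperones 22 of 23 were detected. Ptges3, the gene of p23, stood at 40.4 and 69.0 TPM, Ppid at 41.4 and 62.0, Fkbp4 at 33.8 and 62.4 and Nudc at 32.5 and 57.5. The muscle form Unc45b was the exception at 0.26 and 0.03 TPM. The leading co-chaperones thus stood below both cytosolic Hsp90 genes in each library.

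Exchange factors and Bag proteins, listed together with St13, the gene of another Hsp70 partner, were detected in 11 of 11 cases. St13 (51.3 and 62.4 TPM) and Bag1 (36.8 and 62.3) were highest. The stress-inducible Bag3 was lowest at 1.12 and 1.27 TPM. Of prefoldin and the CCT co-factors 14 of 16 were detected, with Pfdn5 at 43.5 and 95.1 TPM and Pdrg1 at 18.3 and 107. As a share of all counts the Pdrg1 step was smaller, and Pfdn5 was slightly lower in replicate 2. Pfdn5 had 2496 and 4114 counts and Pdrg1 999 and 2830, in libraries of 27901074 and 48490188 counts. Folding enzymes of the endoplasmic reticulum were detected in 13 of 13 cases, with Calr at 239 and 385 TPM and Canx at 116 and 191. Calr, the gene of the lectin chaperone calreticulin, stood above Hspa5 in both libraries. Mitochondrial chaperones and proteases were detected in 12 of 12 cases at lower levels, with the mitochondrial Hsp90 relative Trap1 at 17.4 and 31.1 TPM. Folding genes that every cell uses were detected in 6 of 6 cases, with Btf3 at 276 and 449.8 TPM.

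**Figure D3:**
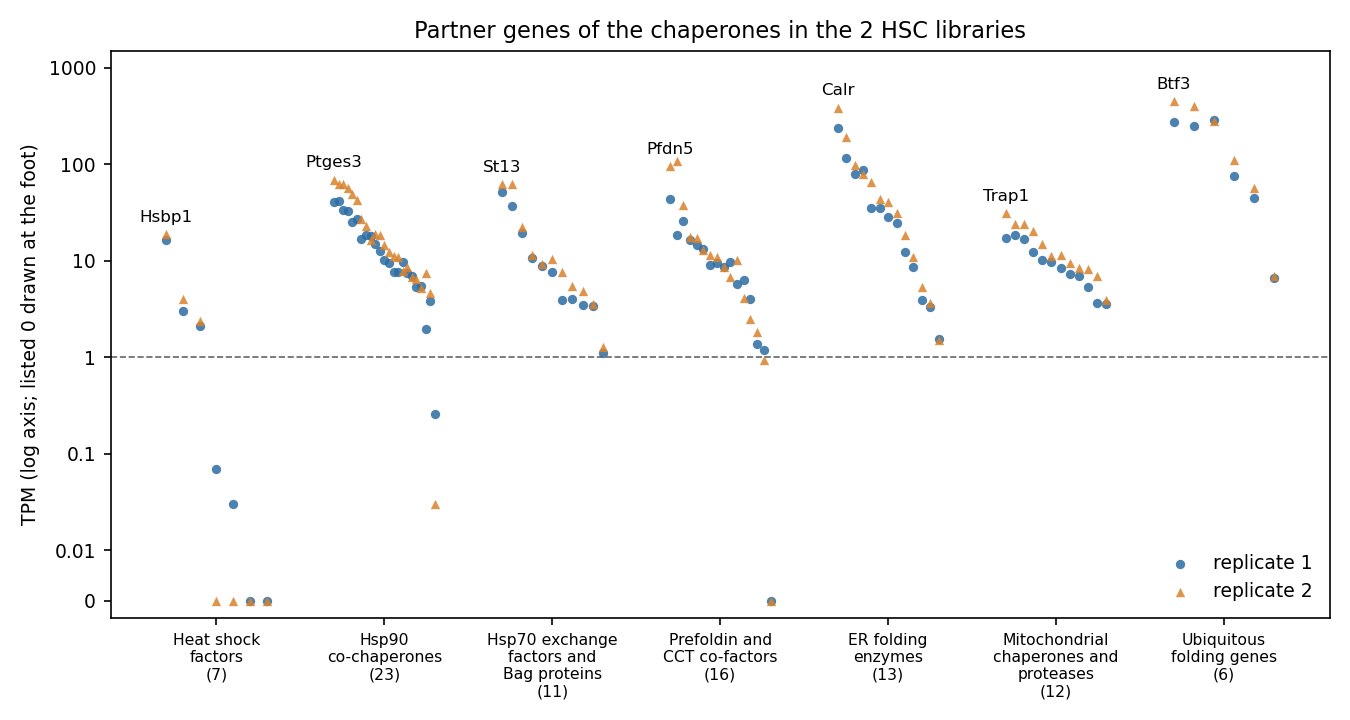
Partner genes of the chaperones in TPM on a log axis, by list with the number of genes, circles for replicate 1 and triangles for replicate 2, ordered by mean within a list. The dashed line is 1 TPM. Genes of the endoplasmic reticulum list and the ubiquitous list reach the highest levels, with Calr at 239 and 385 TPM, and 4 of 7 heat shock factor genes lie under the line.

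Replicate 2 stood higher for most chaperone genes, and much of this was shared with other genes. Of the 61 members with a mean of at least 1 TPM, 55 (90.2%) were higher in replicate 2, beside 74% of the 9901 protein-coding genes at that level. Their median log2 ratio was 0.48, beside 0.29 for protein-coding genes, so relative to the median gene it was 0.19, and 43 of 61 lay above it. The deposited intervals did not overlap and replicate 2 was higher for 49 members (80.3%), beside 57.7% of protein-coding genes, and lower for 3 members (4.92%) beside 13.3%. Over 1.5-fold higher with intervals apart were 26 members (42.6%) beside 23.7%. After centring on the median gene these were 8 members (13.1%) beside 9.66%, and 4 members (6.56%) were lower beside 11.8%. The labels also give the libraries different size ranges, 172 to 1452 in replicate 1 and 232 to 1000 in replicate 2, whose part in these and the transcript and small RNA values was not tested. The intervals describe the estimate within a library and not the spread between animals.

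At over 2-fold, the counts of members were near those of all genes. Higher in replicate 2 were 5 members (8.2%), Hspd1, Dnajc1, Dnajc11, Dnajc19 and Dnajc30, beside 6.53% of protein-coding genes. Lower was 1 member (1.64%), Dnajc4, beside 2.07%. After centring, 2 members were higher, Dnajc1 and Dnajc19, beside 3.19%, and 2 were lower, Dnajc4 and Hspbp1, beside 3.87%. Dnajc19 was 3.18-fold higher in TPM, from 6.71 to 21.4, and went from 10.5 to 25.01 in CPM. It was the one member over 2-fold higher also on scaled counts. Its count carried a posterior SD of 4.11% in replicate 1 and 0.859% in replicate 2. Dnajc4, a mitochondrial J protein, had 3.19 TPM in replicate 1 and 1.22 in replicate 2, and its model Dnajc4-202 went from 61.8% of the gene to 0. Dnajc30, also mitochondrial, stood at 0.68 and 1.59 TPM.

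**Figure D4:**
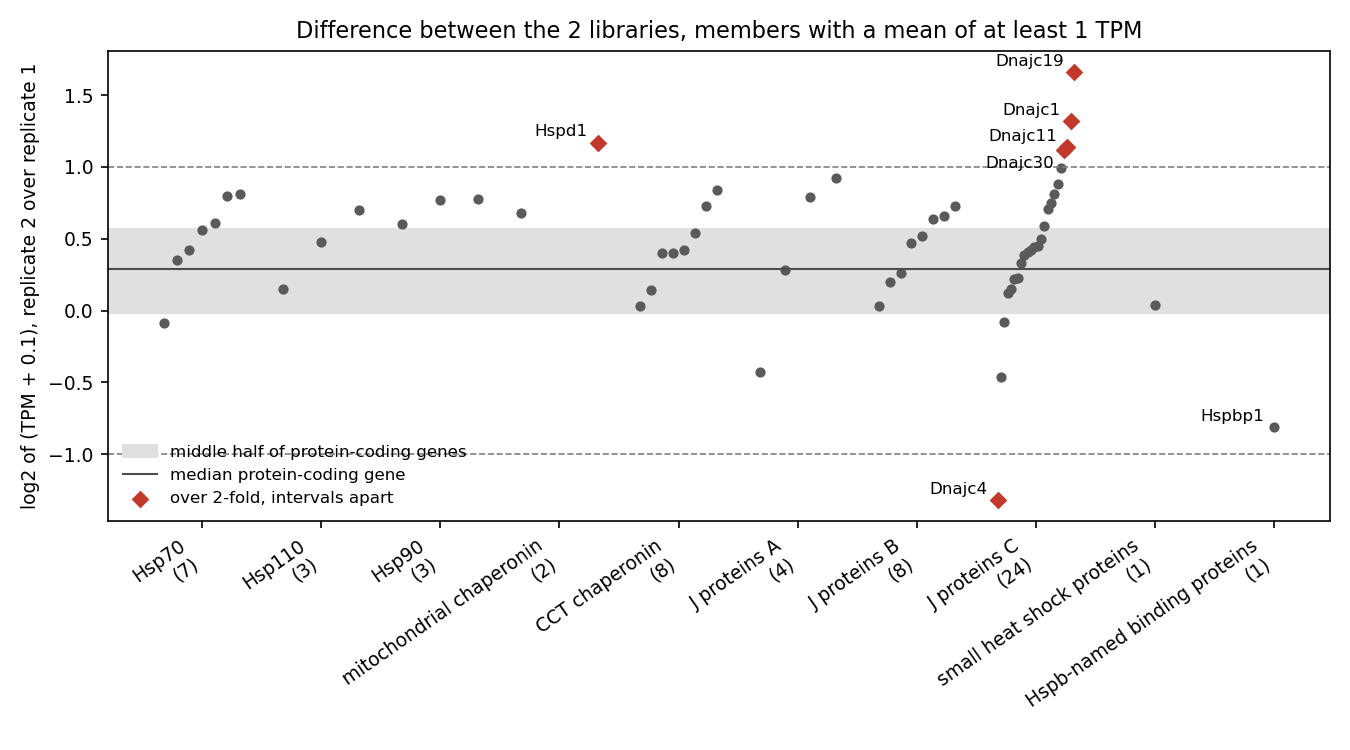
Log2 ratio of (TPM + 0.1) in replicate 2 over replicate 1 for the 61 members with a mean of at least 1 TPM, by class with the number of genes. The line is the median of protein-coding genes at that level, 0.29, and the band runs between their quartiles from -0.02 to 0.57. Dashed lines mark 2-fold and diamonds are the 6 members past it with intervals apart.

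Markers of other cells moved between the same libraries. The summed level of 15 neutrophil markers went from 3256 TPM in replicate 1 to 1259.8 in replicate 2, with 8 over 2-fold lower and 0 higher. Monocyte markers went from 379 to 178 TPM with 4 of 11 lower. Mast cell and basophil markers went from 68.6 to 33.7 TPM with 5 of 10 lower and 1 higher. That 1 marker was higher in TPM only, with 410 counts in replicate 1 and 360 in replicate 2, the deeper library. Erythroid markers went from 134 to 277 TPM with 7 of 14 higher. No neutrophil, monocyte or erythroid marker had 0 counts in both libraries. Immediate early genes went from 561 to 794 TPM with 4 of 20 higher, and proliferation genes from 571 to 757 TPM with 1 of 18 higher. Stem cell markers went from 438 to 520 TPM, and of the 14 with a mean of at least 1 TPM 0 were past 2-fold. The part of these cells and states in the chaperone values was not tested.

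Most members used the same leading transcript in both libraries. Of the 59 detected members, 53 had the same leading transcript in both libraries, and 15 had a single transcript in the table. For the 44 with several, the median share of the gene's TPM in protein-coding transcripts was 84.7% in replicate 1 and 91.2% in replicate 2. It was higher in replicate 2 for 25 members, lower for 11 and equal for 8. In 9 members it differed by over 20 points, and Dnajc21, a ribosome biogenesis factor, differed most, from 47.4% to 90.7%. Hspa8 differed little, with Hspa8-202 at 72.9% and 75.7%, as were Hsp90ab1-201 at 75.6% and 82.0% and Hspd1-201 at 99.1% and 98.7%. Hsp90aa1 was divided between Hsp90aa1-202 (47.3% and 46.5%) and Hsp90aa1-201 (35.4% and 44.8%).

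The larger TPM of 2 members in replicate 2 lay in short models that do not code for the full protein, which were looked at after their values were seen. For Dnajc1 the 746-base model Dnajc1-207, typed as a target of nonsense-mediated decay, held 35.7% of the gene in replicate 1 and 72.1% in replicate 2. In CPM Dnajc1 went from 67.4 to 94.8, a smaller step than from 8.33 to 21.01 TPM. For Dnajc11 the retained intron model Dnajc11-205 held 0% and 34.3%, and the gene went from 62.2 to 91.3 CPM. Both genes stood past 2-fold in TPM and under it in CPM. So did Hspd1 (325 and 616 CPM), with 1 leading transcript as given above, and Dnajc30 (3.08 and 6.04 CPM).

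**Figure D5:**
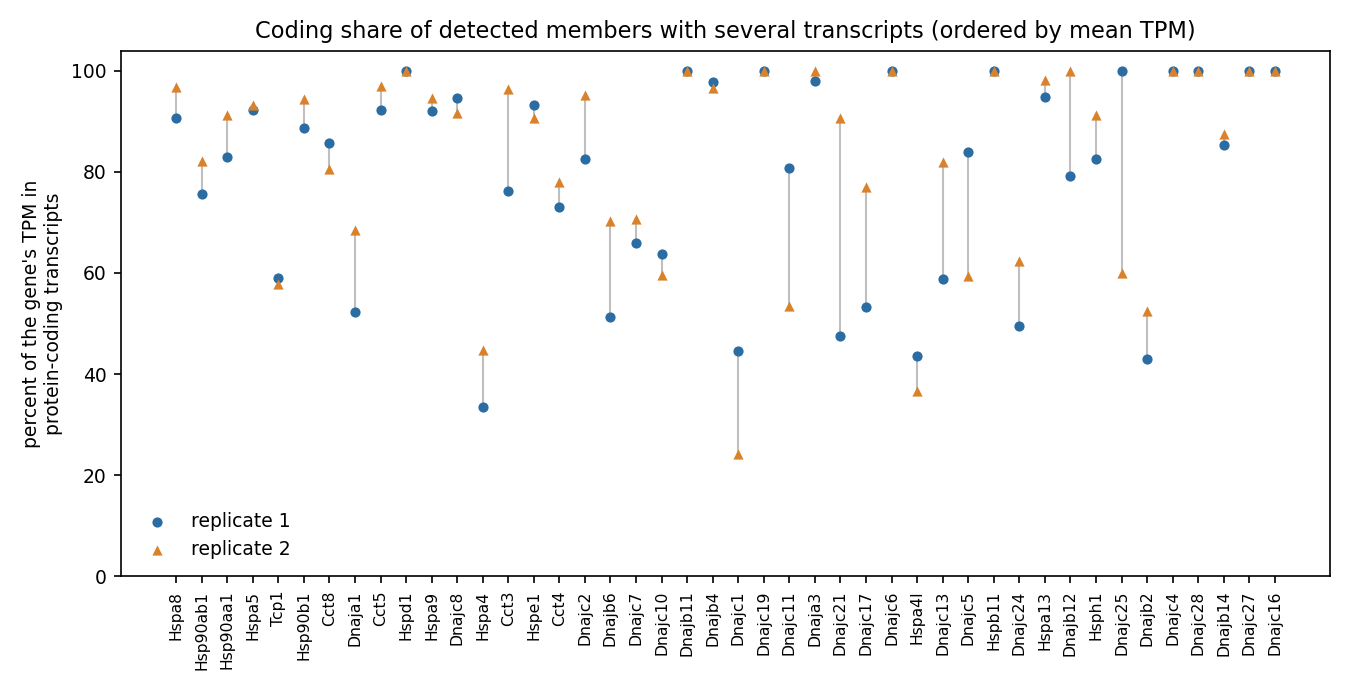
Percent of each gene's TPM in transcripts annotated as protein-coding for the 44 detected members with several transcripts, ordered by mean TPM, circles for replicate 1 and triangles for replicate 2, with a line joining the pair. Transcripts absent from the newer annotation, as for Hspa4l, count as not coding. Hspa4 is low in both libraries at 33.4% and 44.7%, and Dnajc21 shows the longest line.

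Members often shared a start region with another gene. A protein-coding gene starting on the opposite strand within 1000 bases was found for 16 of 82 members (19.5%), beside 7.9% of protein-coding genes. Members form 2 such pairs with each other, Hspd1 with Hspe1 and Hspa1a with Hspa1l, whose starts are 547 bases apart. In the first pair both genes were expressed, and in the second Hspa1l was at or near 0. Cct3 (57.8 and 76.2 TPM) starts 117 bases from Tsacc (0.27 and 1.31), and Cct5 (72.7 and 97.2) starts 48 bases from Fam173b (0.96 and 0.59). Dnajc2 and the proteasome gene Psmc2 (12.3 and 17.9 TPM) start 32 bases apart, and Dnajb4 and Fubp1 (13.8 and 18.1) 120 bases apart, with all 4 genes expressed. Dnajb1 (14.4 and 20.0 TPM) lies 222 bases from Tecr (29.0 and 39.5), which stood above it. Neighbours across a shared start thus ranged from near 0 to levels above the member.

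Some members also contain small RNA genes in their spans. Cct6a holds the small nucleolar RNA gene Gm23245 (chr5:129789539-129789673), which had 9077 counts in replicate 1 and 3586 in replicate 2, beside Snora15 with 62 and 29. Tcp1 holds Snora20 with 65 and 10 counts and Gm26130 with 0 and 6.17. Hspa8 holds Snord14c, Snord14d and Snord14e, of which the highest had 75.7 counts in replicate 1 and 0.93 in replicate 2. These RNAs are listed apart from their host genes. Gm23245, Snora15, Snora20, Snord14c and Snord14d had fewer counts in the deeper library and Gm26130 had more. In TPM Gm23245 and Snora15 went the other way, from 15294 to 16708 and from 122 to 165.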

How the data were processed

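Total RNA of mouse HSC was sequenced in 1 group of 2 biological replicates, numbered as in the labels. Per the file headers, the authors deposited expected counts, which are estimates and can be fractional, with TPM and FPKM per gene and transcript. Interval bounds of TPM, posterior values and lengths, also deposited per the file headers, were treated as scores without a unit of their own. No header names the level of the bounds. The deposited isoform percent says how much of a gene's TPM one transcript takes. Per the text file of each sample, the build was mm10 and the annotation GENCODE M4. For aligner and counter: not given in the sources used here. Features other than protein-coding genes hold most of the TPM, which lowers the TPM of coding genes.

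Names and positions came from GENCODE M21 (GRCm38), matched by identifier for 42462 of 43346 genes. Transcript types are from the same release. A gene was detected at 1 TPM in both libraries. A difference between libraries was called at a mean of at least 1 TPM, over 2-fold on log2 (TPM + 0.1) and intervals that did not overlap. Centred ratios were divided by the median ratio of protein-coding genes with a mean of at least 1 TPM. In 3 members of 61 in replicate 1 and 2 in replicate 2 the deposited TPM lay outside its own interval, Hspa8 among them. No test was made, since there is 1 group.

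The members, the partner and marker lists and the 20 gene pairs were chosen with earlier results of these data known. Named were detected Hsp and CCT genes, J proteins at or above the median detected one, members past the replicate call, the highest and lowest partners and at most 2 markers a list. Values that this rule does not give, such as Slamf1 and Hoxb5, the neighbouring genes and the small RNAs, were chosen after they were seen. Alternatives were other thresholds, pseudocounts, posterior means, FPKM, CPM (counts divided by the library total), TPM over protein-coding genes, size factors, TMM scaling with edgeR 4.0.16 in R 4.3.3, and each library alone. Tables were made with Python 3.11.15 and pandas 2.3.3.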

Additional observations from a re-analysis of the deposited data

How the results depend on the processing

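No paired analysis was possible because there was 1 group. Detection kept its count within 1.5 times under every alternative run, from 43 at 5 TPM to 66 at 10 counts, and was 60 in either library alone. The median level, 6.65 TPM, ranged from 6.06 to 7.24 over single libraries, and was 16.6 among detected members, 36.4 with TPM over protein-coding genes, 19.1 in FPKM and 43.4 in CPM, which are other units. The share of protein-coding TPM ranged from 1.60 to 2.04 over single libraries and was 2.16 in counts. Members higher in replicate 2 numbered 26 at 1.5-fold, 1 at 3-fold, 2 when centred and 1 each with size factors and TMM. Members lower numbered 2 at 1.5-fold, 0 at 3-fold and at a mean of 5 TPM, and 2 each when centred and with size factors and TMM. No single library gives such a count. The CCT ratio ranged from 4.56 to 4.92 over single libraries and was 3.24 in CPM and 3.15 over coding transcripts, which was chosen after seeing the data. Of 17 pair ratios, 10 moved and 1 turned in CPM, Dnajb11 over Dnajc3 with -1.12. In CPM Dnajb6 over Dnajb1 (mean 0.04) and Dnajc7 over Dnajc5 (mean 0.02) also differed in direction between the libraries. By the interval rule 12 pairs were ordered, or 11 by a 1.5-fold rule. The shallower library limits precision for members at a few counts, and 2 libraries limit every spread given.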
